A study of Mus musculus with 8 samples.

Results

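Basement membrane genes are described here in mouse embryonic stem cells (ESCs) from which nucleostemin (NS) was withdrawn. The 10 genes are Col4a1 and Col4a2 of collagen IV, the laminin chains Lama1, Lama5, Lamb1 and Lamc1, the linkers Nid1, Nid2 and Hspg2, and the matrix glycoprotein gene Sparc. They are 10 of 18194 genes and 22 of 45101 probe sets on the arrays, and no filter on low signal removed any of them. The genes were chosen by function, with the values of the same arrays known. Col4a1 and Lama1 had been seen to move in opposite ways when NS was withdrawn, so all their differences with doxycycline (Dox) are given as descriptions with no test.

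NS tet-off ESCs are male 129sv cells in which both copies of the NS gene, Gnl3, are disrupted and an NS cDNA at the ROSA26 locus is expressed until Dox shuts it off. This disruption and transgene were shared by all 8 arrays, also those called Dox-untreated. RNA came from cells without Dox and with Dox for 6 days in 4 backgrounds: an empty vector, an empty vector in the 2i condition (medium with inhibitors of MEK and GSK3b), forced Nanog and forced Esrrb. There was 1 array for each of the 8 conditions, so no condition has an error of its own, and whether each line was 1 clone is not given in the sources used here.

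Values are log2 signals, on which a difference of 1 is 2-fold, and a log2 ratio is the value with Dox less the value without it in the same background. Gnl3 signal in the Dox-treated cells was 1.95% to 4.25% of that in their Dox-untreated partners. Dusp6, a target of MEK signalling, was at 10.97 on the Dox-untreated empty vector array and at 10.95 on the Dox-untreated 2i array, against 7.63 on the Dox-treated 2i array. The Dox-untreated 2i array thus did not show the low Dusp6 of its partner, and values of the 2i pair are also given against the Dox-untreated empty vector array. With either reference, a difference with Dox and a difference with the inhibitors cannot be told apart in 2i. Nanog signal was 12.35 without and 12.23 with Dox on the arrays labelled forced Nanog, the lowest of the 8 and below the 12.81 of untreated empty vector cells. Esrrb signal was 11.27 and 11.38 on the arrays labelled forced Esrrb, against 11.31 in untreated empty vector cells. A dimmer Esrrb probe set was at 7.77 and 7.87 there, against 7.03. Whether these probe sets detect the introduced cDNAs is not known here, and the backgrounds are named by their labels. Summed signal of 10 ESC markers, which is weighted to the brightest of them, lay between 61000 and 78400 on the 8 arrays.

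Basement membranes are thin sheets of extracellular matrix on which epithelial and other cells rest. Laminins, trimers of an alpha, a beta and a gamma chain, assemble at the cell surface, collagen IV forms a second network, and nidogens and perlecan join the networks. In the early mouse embryo, laminin with the alpha1 chain and collagen IV are made in large amounts by parietal endoderm, while the inner cell mass and its derivatives also make laminin with the alpha5 chain.

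Col4a1 and Col4a2 encode the chains of the most widespread collagen IV trimer and lie head to head on chromosome 8. Their promoters are shown because the 2 genes had nearly the same ratios on the arrays. The RefSeq windows (GRCm38.p6, 250 bases before to 50 after each annotated start) are chr8:11312777-11313076 on the minus strand for Col4a1 and chr8:11312555-11312854 on the plus strand for Col4a2. Each is printed 5′ to 3′ on the strand of its gene, with capitals for the 78 bases that both windows hold, read from opposite strands:
Col4a1: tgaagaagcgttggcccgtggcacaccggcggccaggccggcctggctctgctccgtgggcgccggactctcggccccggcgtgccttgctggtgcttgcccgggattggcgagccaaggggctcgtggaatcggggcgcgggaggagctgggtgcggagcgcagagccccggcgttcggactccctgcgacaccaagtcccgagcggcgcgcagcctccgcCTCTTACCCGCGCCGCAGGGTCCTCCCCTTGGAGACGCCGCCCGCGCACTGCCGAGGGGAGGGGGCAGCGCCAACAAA
Col4a2: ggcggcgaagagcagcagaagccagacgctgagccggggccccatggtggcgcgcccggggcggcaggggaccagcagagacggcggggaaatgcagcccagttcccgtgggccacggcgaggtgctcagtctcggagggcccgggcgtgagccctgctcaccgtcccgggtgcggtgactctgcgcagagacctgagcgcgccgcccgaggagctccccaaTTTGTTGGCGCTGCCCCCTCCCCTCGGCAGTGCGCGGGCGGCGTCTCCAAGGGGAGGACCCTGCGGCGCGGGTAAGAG
The annotated starts were 21 bases apart. G and C made up 74% of the Col4a1 window and 73.7% of the Col4a2 window, against a median of 52.7% over 32851 RefSeq promoters.

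Short motifs were searched on both strands of these windows and of the other 5 member promoters in the RefSeq table (Lama5, Lamb1, Nid1, Hspg2 and Sparc). GGGCGG, the letters of a GC box, occurred in 6 of these 7 promoters (all but Sparc) and in 35.7% of all promoters. In the Col4a1 window its 1 match began 9 bases after the start, within the capitals, and the same bases gave 1 of the 3 matches in the Col4a2 window. CCAAT occurred in Col4a1, Col4a2, Lamb1 and Nid1, with a background of 37.4%. TATAAA (13.6% of all promoters), TGACTCA (5.2%), AGATAA (11.2%) and AAGGTCA (4.72%) were in none of the 7 windows. Such matches describe the letters only.

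Col4a1 was higher after Dox in the empty vector and 2i backgrounds, less so with forced Nanog, and lower with forced Esrrb. Its signal was 6.89 without and 9.12 with Dox in empty vector cells, 6.85 and 8.68 in 2i, 7.61 and 8.21 in Nanog cells, and 10.53 and 9.92 in Esrrb cells. The log2 ratios were thus 2.22 (4.66-fold), 1.83 (3.55-fold), 0.60 and -0.62. Dox-untreated Esrrb cells had the highest value of all 8 arrays, so the Dox-treated and Dox-untreated values overlapped. A second Col4a1 probe set gave log2 ratios of 1.52, 1.66, 0.80 and -0.68 in the same order. Against the Dox-untreated empty vector array, the Dox-treated 2i array was higher by 1.78.

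Col4a2 followed the same order. Its signal was 5.86 and 7.92 in empty vector cells, 5.70 and 7.66 in 2i, 6.41 and 6.83 in Nanog cells, and 9.03 and 8.37 in Esrrb cells, without and with Dox. Its log2 ratios were 2.06 (4.17-fold), 1.96 (3.90-fold), 0.42 and -0.66. In each background the ratios of the 2 genes were within 0.17 of each other. Across the 8 arrays the 2 signals had a Pearson r of 0.993, a description over arrays that share their backgrounds in pairs.

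**Figure D1:**
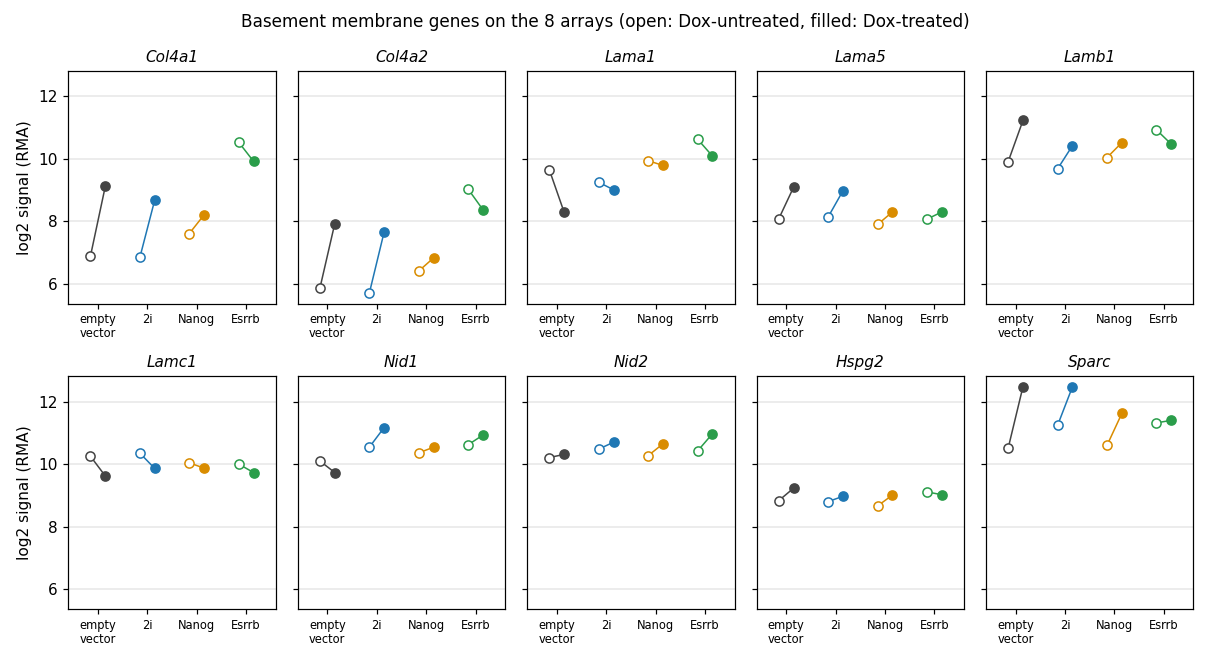
Log2 signal of each of the 10 basement membrane genes on the 8 arrays, with Dox-untreated and Dox-treated values of a background joined by a line (1 array per condition, no error bars). Col4a1 and Col4a2 start highest in Esrrb cells, at 10.53 and 9.03, and Lama1 is lowest in Dox-treated empty vector cells, at 8.29.

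Lama1, an alpha chain of early embryonic laminin, was lower after Dox, mainly in empty vector cells. Signals without and with Dox were 9.65 and 8.29 in empty vector cells, 9.25 and 9.01 in 2i, 9.94 and 9.79 in Nanog cells, and 10.63 and 10.09 in Esrrb cells. The log2 ratios of its single probe set were -1.37 (2.58-fold lower), -0.24, -0.15 and -0.54. The ratio was below 0 in all 4 backgrounds, although the 2 sets of 4 arrays overlapped. With the Dox-untreated empty vector array as reference, the 2i value was -0.64.

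Lama5, the alpha5 chain, was the reverse of Lama1. It was at 8.08, 8.14, 7.90 and 8.07 without Dox (empty vector, then 2i, Nanog and Esrrb cells) and at 9.09, 8.98, 8.30 and 8.30 with Dox. The log2 ratios were 1.01, 0.84, 0.40 and 0.23, the first just past 2-fold. All 4 Dox-treated values lay above all 4 Dox-untreated ones. Another bright probe set gave 0.91, 0.77, 0.19 and 0.23, while a dim one, below the median signal of 5.33 on all arrays, gave 0.31 to 0.48.

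Lamb1, the beta1 chain found in both laminins, resembled Col4a1 in its order of ratios. Signals without and with Dox were 9.91 and 11.23 in empty vector cells, 9.68 and 10.42 in 2i, 10.04 and 10.52 in Nanog cells, and 10.93 and 10.47 in Esrrb cells. The log2 ratios were 1.31, 0.73, 0.47 and -0.46, and again the untreated Esrrb value was the highest without Dox. Its 4 probe sets gave 0.65 to 1.31 in empty vector cells.

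Lamc1, the gamma1 chain that both laminins share, was lower in all Dox-treated cells. It was at 10.25, 10.35, 10.04 and 10 without Dox and at 9.62, 9.86, 9.87 and 9.73 with Dox, in the order empty vector, 2i, Nanog, Esrrb. The ratios were -0.63, -0.49, -0.17 and -0.27, and the 2 sets of arrays did not overlap. A second probe set gave -0.69, -0.60, -0.22 and -0.60. By that probe set the sets of arrays did overlap, with 8.32 in Dox-treated 2i cells against 8.24 in Dox-untreated Nanog cells.

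The laminin chains thus differed in direction. In empty vector cells the Lama5 ratio exceeded that of Lama1 by 2.38 and the Lamb1 ratio exceeded that of Lamc1 by 1.94. These distances were 1.08 and 1.22 in 2i, 0.55 and 0.64 in Nanog cells, and 0.77 and -0.19 in Esrrb cells. The distance between Col4a1 and Lama1, on which the choice of genes rested, was 3.59, 2.06, 0.75 and -0.08. With forced Esrrb the latter 2 genes were both lower after Dox, by much the same amount.

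Sparc encodes a collagen-binding glycoprotein of basement membranes and is abundant in parietal endoderm. Its signal was 10.51 and 12.48 in empty vector cells, 11.24 and 12.47 in 2i, 10.60 and 11.62 in Nanog cells, and 11.32 and 11.40 in Esrrb cells, without and with Dox. The log2 ratios were 1.97 (3.91-fold), 1.22 (2.34-fold), 1.02 (2.03-fold) and 0.08. Every Dox-treated array was above every Dox-untreated one, though the Dox-treated Esrrb array only just. A second probe set gave 1.96, 1.34, 0.85 and -0.04, and the remaining one, near the median signal, 0.00, 0.39, -0.11 and 0.14. By the second probe set the Dox-treated Esrrb array (10.24) was just below the Dox-untreated one (10.27). Against the Dox-untreated empty vector array the 2i value was 1.96.

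The linkers differed less. Nid1, which joins laminin to collagen IV, was at 10.10 and 9.73 in empty vector cells, 10.54 and 11.17 in 2i, 10.36 and 10.54 in Nanog cells, and 10.62 and 10.93 in Esrrb cells. Its ratios were -0.37, 0.63, 0.18 and 0.31, and a second probe set gave 0.01 in empty vector cells. Against the Dox-untreated empty vector array the Dox-treated 2i value of Nid1 was higher by 1.07, past 2-fold only with that reference.

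Nid2, its paralog, was at 10.21, 10.48, 10.27 and 10.42 without Dox and at 10.31, 10.70, 10.65 and 10.97 with Dox. Ratios of 0.11, 0.22, 0.37 and 0.55 followed, so that Nid2 alone among the 10 genes had its largest ratio in Esrrb cells. Hspg2, the core protein of perlecan, a heparan sulfate proteoglycan, lay between 8.66 and 9.23 on all arrays, with ratios of 0.40, 0.17, 0.34 and -0.10. Its second probe set gave 1.10, 0.81, 0.38 and 0.28, so that the size of the Hspg2 difference depended on the probe set.

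**Figure D2:**
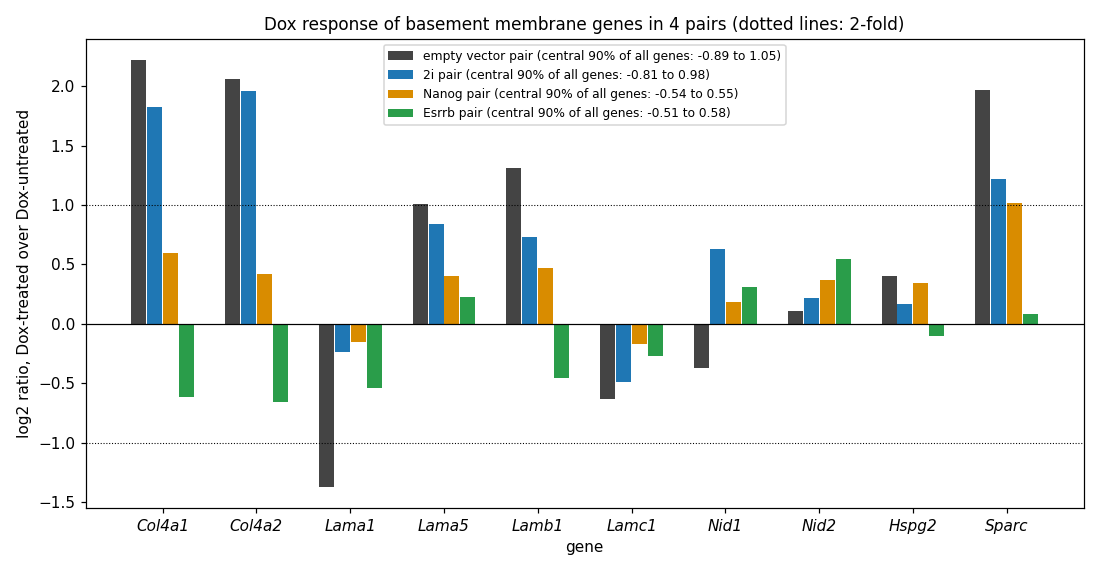
Log2 ratio (Dox-treated minus Dox-untreated) of the 10 genes in the 4 backgrounds, 1 bar per gene and background, with dotted lines at 2-fold. The legend gives the range of the central 90% of all 18194 genes. In empty vector cells, where that range is -0.89 to 1.05, the bars of Col4a1, Col4a2, Lamb1 and Sparc reach above it and that of Lama1 below it.

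In empty vector cells 5 of the 10 genes (Col4a1, Col4a2, Lama5, Lamb1 and Sparc) were over 2-fold higher with Dox and 1 (Lama1) over 2-fold lower, where 5.36% of all genes were higher and 3.85% lower. Lama5 was under 2-fold with each array centred on its median (0.99) or with the mean of its probe sets (0.75), which left 4 higher. In 2i, 3 were higher (Col4a1, Col4a2 and Sparc) and 0 lower, beside 4.81% and 3.10% of all genes. Sparc alone passed in Nanog cells (background 1.13% higher, 1.17% lower), and 0 did in Esrrb cells (1.06% and 0.967%). The median log2 ratio of the 10 genes was 0.71, 0.68, 0.39 and -0.18 in these backgrounds, and that of all genes -0.03, 0.03, -0.01 and 0. As the genes were chosen on these contrasts, nothing is read from these shares. The same holds for the Dox-treated and Dox-untreated arrays that did not overlap by the brightest probe set, higher for Lama5 and Sparc (8.79% of all genes) and lower for Lamc1 (8.96%).

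The 4 Dox-untreated arrays set the levels with NS present. Esrrb cells stood apart: compared with empty vector cells, Col4a1 was higher by 3.64 on the log2 scale (12.5-fold), Col4a2 by 3.18 (9.04-fold), Lamb1 by 1.01, Lama1 by 0.98 and Sparc by 0.81. Lama5 (-0.01) and Lamc1 (-0.25) were not higher. Thus 3 of 10 genes were over 2-fold higher and 0 lower in Esrrb cells, where 1.26% of all genes were higher and 0.561% lower. Lamb1 was only just past 2-fold. The count was 2 with the mean of probe sets and 4 with a second quantile normalization, all higher. In Nanog cells 0 of 10 passed 2-fold (background 0.434% higher, 0.253% lower), with Col4a1 at 0.71, and in 2i 0 of 10 (0.517% and 0.242%), with Sparc at 0.73. With 1 array per condition, none of these differences has a replicate check.

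Markers of primitive and parietal endoderm moved with collagen IV in the Esrrb cells. Of 17 measured markers, 10 were over 2-fold higher on the Dox-untreated Esrrb array than on the Dox-untreated empty vector array, beside 1.26% of all genes. The median log2 difference of the 17 markers was 1.30. Gata6, an endoderm transcription factor, was at 8.39 against 4.89, and Amn, an endoderm endocytic receptor subunit, was higher by 1.30. Srgn, a proteoglycan core protein, was at 10.82 and higher by 5.40. The summed linear signal of the list was 4570 on that array and 1820 on the Dox-treated Esrrb array, and 708 to 974 on the other 6. Afp, Thbd and Pth1r were below the median signal on all arrays. After Dox, 9 of 17 markers were over 2-fold lower in Esrrb cells (median log2 ratio -1.01, beside 0.967% of all genes over 2-fold lower), where Col4a1, Col4a2, Lama1 and Lamb1 were also lower. Their part in the result was not tested, and in bulk RNA fewer cells of a type and less RNA per cell cannot be told apart.

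**Figure D3:**
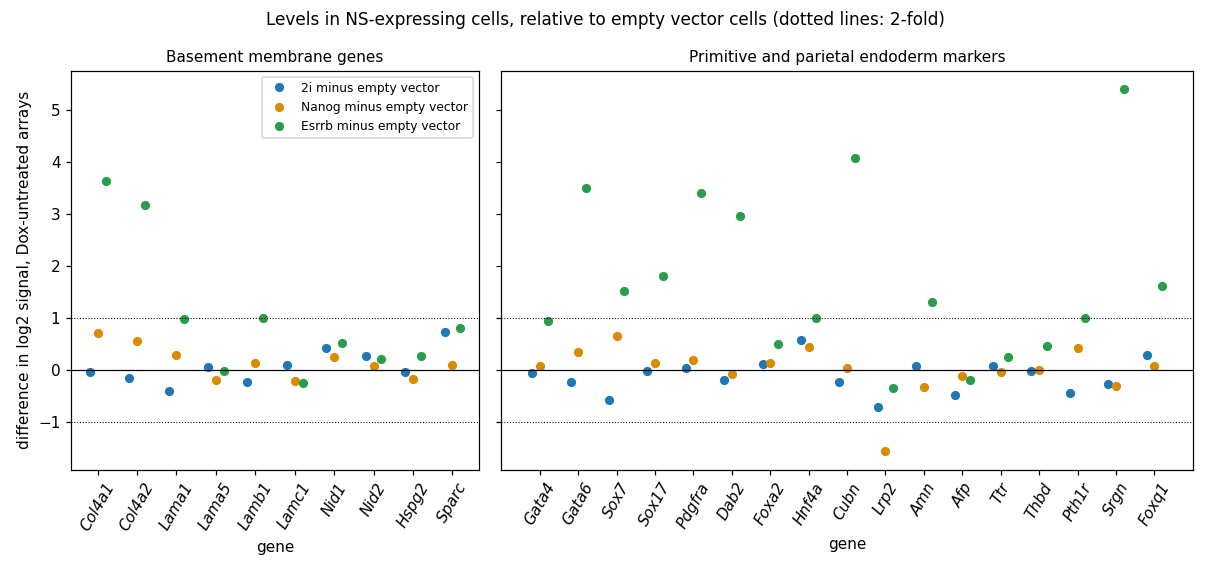
Log2 difference of each Dox-untreated array from the Dox-untreated empty vector array for the 10 genes and the 17 endoderm markers (1 array each, no error bars). Col4a1 (3.64) and Col4a2 (3.18) are among the highest points of the Esrrb array, next to Srgn (5.40), while on the 2i and Nanog arrays the 10 genes lie between -0.40 and 0.73.

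In empty vector and 2i cells, where collagen IV was higher with Dox, the summed endoderm signal was not. It was 974 without and 833 with Dox in empty vector cells and 855 and 725 in 2i, and the median log2 ratio of the list was -0.05 and 0.31. The sum is weighted to the brightest markers, which in Dox-untreated empty vector cells were Lrp2 (7.78), Amn (7.59) and Sox7 (7.24). Lrp2 was named after its values were seen. Over 2-fold, 1 marker was higher and 2 were lower in empty vector cells, beside 5.36% and 3.85% of all genes. In 2i 2 were higher and 2 lower, beside 4.81% and 3.10%, and 12 of 17 were above 0. Within the list, Gata6 was higher (1.42 and 1.5), while Amn was lower (-1.63 and -1.40) and Srgn was at -1.46 and 0.35. In 2i the others past 2-fold, named after their values were seen, were Dab2 (1.54) and Sox7 (-2.94). Trophoblast markers were higher with Dox in the same backgrounds. Of 11 measured, 7 were over 2-fold higher in empty vector cells and 5 in 2i, beside 5.36% and 4.81% of all genes, against 0 in Nanog and 0 in Esrrb cells. On the Dox-untreated Esrrb array, where collagen IV was highest, 2 of 11 were over 2-fold higher than in Dox-untreated empty vector cells (1.26% of all genes). The median log2 difference of the trophoblast markers there was 0.14. Their summed signal was 1590 without and 11200 with Dox in empty vector cells, 1890 and 5010 in 2i, 1950 and 1890 in Nanog cells, and 2580 and 2300 in Esrrb cells. The simple-epithelium keratins Krt18 (4.42 in empty vector cells) and Krt8 (3.85) and the transcription factor Ascl2 (2.70) had the largest ratios, and the defining markers Elf5 and Tpbpa were below the median signal on all arrays. The part of these markers in the basement membrane values was not tested.

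Fibroblast and endothelial markers were low in part. Of 11 fibroblast markers, 8 were below the median signal on all arrays, Col1a1, Col1a2 and Col3a1 among them, and the summed signal was 368 to 575. Thy1 (6.12 to 7.80) and Col6a2 (6.64 to 7.29) were above it on all. The fibroblast genes with the largest ratios in empty vector cells were Col6a1 (1.03), Thy1 (-0.62) and Col1a2 (0.36). In 2i 1 was over 2-fold higher, Pdgfrb (1.34), and 1 lower, Thy1 (-1.18), beside 4.81% and 3.10% of all genes. Pdgfrb, named after its values were seen, had -0.03, 0.71 and 0.99 in empty vector, Nanog and Esrrb cells. Its other probe set had 0.43 in 2i and -0.31 in Esrrb cells. Of 6 endothelial markers, Cdh5, Tie1 and Emcn were below the median signal on all arrays, while Tek (6.69 to 8.70) and Kdr (5.85 to 7.27) were above it. The summed signal of the 6 was higher with Dox, as collagen IV was, in empty vector cells (325 without and 588 with Dox) and in 2i (318 and 651), against 284 and 334 in Nanog cells and 366 and 437 in Esrrb cells. All 6 had ratios above 0 in empty vector cells and 4 in 2i, and their part in the result was not tested. Tek, an angiopoietin receptor, had ratios of 1.24 and 2.01 in empty vector and 2i cells. Esam (0.67) and Emcn (0.39) were the next in empty vector cells. Among ESC markers, Lin28a (-0.72), Fgf4 (-0.64) and Sall4 (-0.61) differed most in empty vector cells. Over 2-fold lower were Lin28a in 2i (-1.99) and Nanog cells (-1.10), and Utf1 in 2i (-1.12), beside 3.10% of all genes in 2i and 1.17% in Nanog cells. In no pair was an ESC marker over 2-fold higher. Utf1 was named after its values were seen, and its 3 probe sets ran from -1.12 to -0.03 in 2i.

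Genes with the pattern most like that of Col4a1 over the 8 arrays were sought among 1227 genes of above-median signal and an SD of at least 0.5. Col4a2 came first (Pearson r 0.993), followed at a distance by Ldhb (0.868), P4ha2 (0.865), Pdk4 (0.855) and Rcsd1 (0.852). P4ha2 encodes a subunit of prolyl 4-hydroxylase, which modifies collagen chains. For Lama1 the closest were Fam189a2 (0.969), St8sia6 (0.965), Pip4k2a (0.964), Srgap3 (0.957) and Adssl1 (0.951). Among the members, Col4a1 had r of 0.807 with Lamb1, 0.295 with Lama1 and -0.693 with Lamc1, while Lama5 had 0.936 with Sparc and -0.79 with Lama1. These values describe 8 arrays in 4 pairs.

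**Figure D4:**
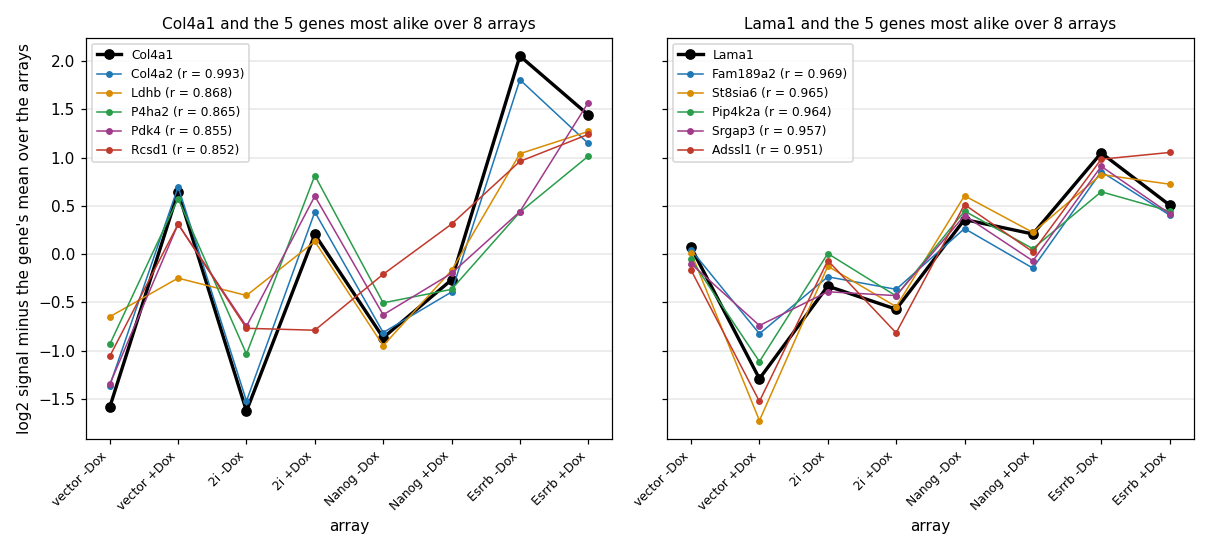
Log2 signal relative to each gene's mean over the 8 arrays for Col4a1 (left) and Lama1 (right) with the 5 genes most like each. Col4a2 (r 0.993) runs along Col4a1, and the Lama1 group has its lowest values on the Dox-treated empty vector array.

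The wider set of basement membrane genes was a list of 67 partner genes in 6 classes, of which 64 were measured. In empty vector cells 15 were over 2-fold higher with Dox and 2 lower, or 23.4% and 3.12%, beside the 5.36% and 3.85% of all genes. In 2i 9 were higher and 3 lower, beside 4.81% and 3.10% of all genes. There were 2 and 1 in Nanog cells (1.13% and 1.17% of all genes) and 0 and 1 in Esrrb cells (1.06% and 0.967%). These shares of all genes also stand beside the counts by class that follow. Their median log2 ratios were 0.31, 0.17, 0.08 and 0.04. With the Dox-untreated empty vector array as reference, 13 were higher and 3 lower in 2i.

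Among the 6 other laminin chains measured, Lama3 and Lamb3, chains of the epithelial laminin-332, were the ones over 2-fold higher in empty vector cells. Lamb3, named after its values were seen, had ratios of 1.40, 1.01, -0.19 and -0.67. Lamb2, a beta chain of mature basement membranes, had -0.06 in both empty vector and 2i cells. Of 7 other collagens, Col18a1, the source of endostatin, had 1.55, 0.15, 0.80 and 0.79, and Col7a1, named after its values were seen, had 2.12 in empty vector cells and 0.00 in 2i. The remaining collagen IV genes, Col4a3, Col4a4, Col4a5 and Col4a6, had ratios between -0.13 and 0.30 in empty vector cells. Their signals of 3.31 to 4.43 were below the median signal on all arrays, so these ratios say little about the genes. Over all their probe sets the ratios in empty vector cells ran from -0.29 (Col4a4) to 0.90 (Col4a5).

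Of 13 linkers and proteoglycans, 1 was over 2-fold higher and 1 lower in empty vector cells. Fn1, which encodes fibronectin, was at 12.3 without and 10.36 with Dox there, a ratio of -1.94, against 0.26, -0.47 and -0.08 in the other backgrounds. A second Fn1 probe set gave -2.13, 0.12, 0.52 and 0.89 in the order empty vector, 2i, Nanog, Esrrb. As with Lama1, the difference was past 2-fold in empty vector cells only. Fbln1, a fibulin, had 0.41 in empty vector cells. Npnt, a ligand of integrin alpha8beta1 that was named after its values were seen, had 3.02, 1.91, 0.41 and -0.13, and its 5 probe sets ran from 0.08 to 3.02 in empty vector cells.

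Collagen-modifying enzymes followed Col4a1 in part. Of 15 measured, 3 were over 2-fold higher in empty vector cells (P4ha2, Plod2 and Serpinh1) and 3 in 2i (P4ha1, P4ha2 and Plod2). Over 2-fold lower were Loxl1, a lysyl oxidase homolog, in empty vector (-1.06) and Nanog (-1.59) cells, Pxdn, which cross-links collagen IV, in 2i (-1.34), and Serpinh1 in Esrrb cells. Plod2, a lysyl hydroxylase, had ratios of 1.88, 1.67, 0.29 and 0.43, and P4ha2 had 1.52, 1.85, 0.14 and 0.58. Serpinh1, the collagen chaperone HSP47, named after its values were seen, had 1.40, 0.60, 0.30 and -1.10. Like Col4a1, it was higher on the Dox-untreated Esrrb array than on the empty vector one, by 1.01, and P4ha2 was by 1.37.

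All 14 receptor and adaptor genes had ratios above 0 in empty vector cells, 4 of them over 2-fold (Itga3, Itgb4, Ddr1 and Ilk), with a median of 0.57. Ddr1, a collagen receptor kinase, had 2.80, 0.66, 1.16 and 0.86, with its 8 probe sets from -0.16 to 2.80 in empty vector cells. Itgb4, which binds laminin-332 as part of integrin alpha6beta4, had 2.29, 0.93, 0.28 and 0.43. The 9 remodelling genes were likewise all above 0 there, with a median of 0.80 and 3 over 2-fold. Mmp2, which cleaves collagen IV, had 0.80, 0.60, 0.22 and 0.40, and Mmp14, which activates it, had 0.58, -0.65, 0.14 and 0.12. Plat and Timp3, named after their values were seen, had 1.78 and 1.72 in empty vector cells and 2.50 and 1.78 in 2i, and at most 0.37 in Nanog and Esrrb cells. In empty vector cells their probe sets ran from -0.05 to 1.78 for Plat and from 0.17 to 1.72 for Timp3. In 2i they ran from 0.26 to 2.50 and from 0.59 to 1.78.

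**Figure D5:**
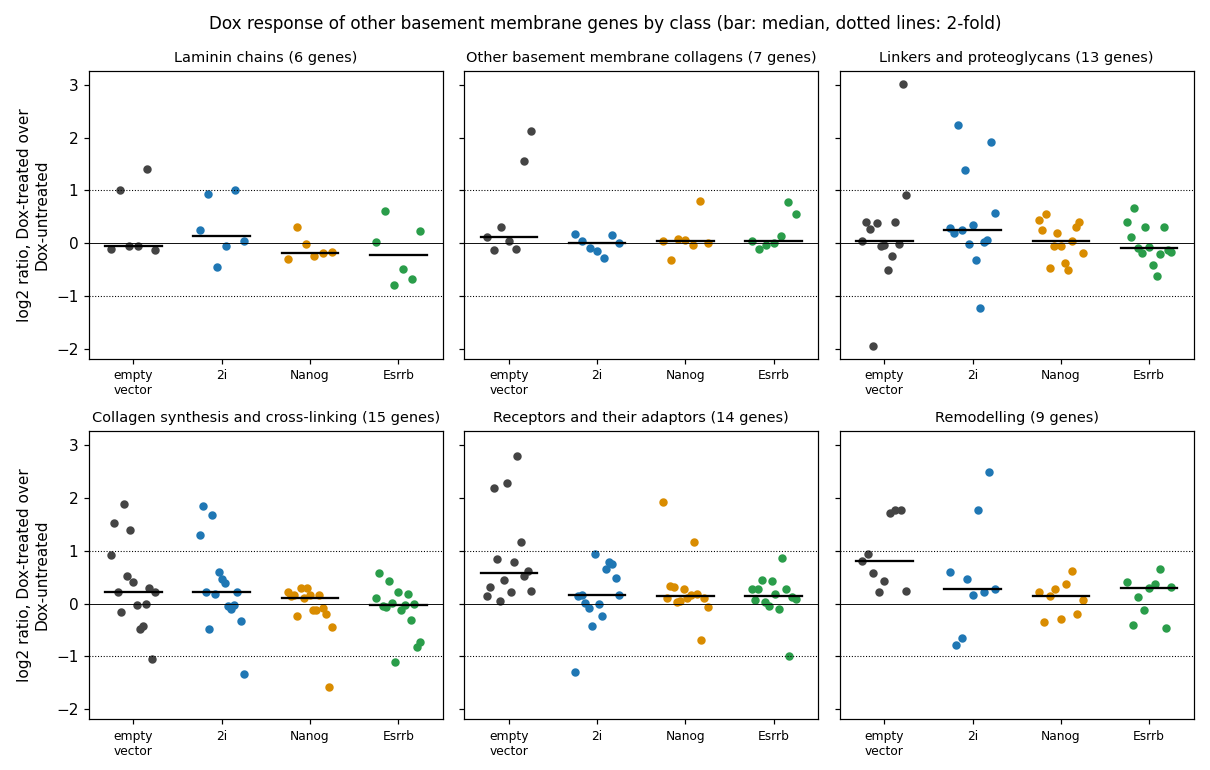
Log2 ratio of 64 partner genes in the 4 backgrounds, 1 point per gene, grouped by class, with dotted lines at 2-fold. Receptors and remodelling genes all lie above 0 in empty vector cells, with medians of 0.57 and 0.80, and most points of the Nanog and Esrrb cells lie within 2-fold.

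limma with the 4 backgrounds as repeats of the Dox contrast tested partner genes among all 18194 genes. For the response common to the backgrounds it called 1 of 64 higher and 1 lower after Benjamini-Hochberg adjustment, where 3.69% and 3.39% of all genes were called. Lama3 rose by 0.72 (SE 0.145, higher in 4 of 4 pairs, adjusted p = 0.0449), with signals of 4.57 to 6.37, and its second probe set had ratios from -0.38 to 0.04. Frem1, which encodes a protein of the embryonic epidermal basement membrane, fell by 0.40 (SE 0.0681, lower in 4 of 4 pairs, adjusted p = 0.034), below the median signal on all arrays. Neither call held when any 1 pair was left out, with adjusted p from 0.0795 to 0.13 for Lama3 and from 0.0855 to 0.109 for Frem1. At an unadjusted p under 0.05, limma had 18 partner genes higher and 3 lower (32.8% of 64, against 27.4% of all genes).

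The difference between the Dox response with forced Nanog or Esrrb and that with empty vector or 2i was called for 0 of 64 partner genes by limma, beside 0% of all genes higher and 0.0824% lower. At an unadjusted p under 0.05 there were 1 higher and 14 lower (23.4% of 64, against 15.8% of all genes). The smallest adjusted p from limma was 0.0518, for Plod2, whose ratio was lower by 1.41 with forced Nanog or Esrrb. That gene passed when each array was centred on its median, so the count of 0 depends on this choice. With 1 pair left out, 1 side of the difference rests on a single pair with no spread of its own. Counts of calls from those fits therefore stand only among the processing alternatives, and nothing is read from them.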

How the data were processed

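Affymetrix GeneChip mouse genome arrays measured RNA of NS tet-off ESCs in 8 conditions, 1 array each, grouped by the labels. The authors deposited log2 values made by RMA with the affy package in R (background subtraction, quantile normalization, summary per probe set). Neither versions nor the log base were found in the labels or the methods, and base 2 was read from the range of 1.82 to 14.6. Quantile normalization hides a shift of all genes 1 way. For arrays, their number limits the precision. There were 0 value columns of no sample. The Stat3 pair is not analysed here.

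Of 45101 probe sets, 34958 had 1 symbol in the platform annotation, 932 several and 9211 were unnamed here. A gene took its probe set with the highest mean. No test was made within a pair. limma 3.58.1 in R 4.3.3 (lmFit, eBayes with a trend) fitted the Dox response with the background as a block (3 residual degrees of freedom), and the difference of responses (2). Both arrays of a pair carry the same background label, though Dusp6 differed within the 2i pair. Benjamini-Hochberg adjustment ran over 18194 genes, with a threshold of 0.05. The p-values measure the spread between backgrounds, which are not replicates of 1 condition. In a trial with artificial changes, the fit of the common response found most of the changed genes. The fit of the difference missed every gene changed by 1 on the log2 scale and most of those changed by 2. Few calls of the difference therefore do not show that the responses were alike. Tables and figures used Python 3.11.15, pandas 2.3.3, numpy 2.4.6 and matplotlib 3.10.9.

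The members and lists were chosen with earlier results of these data known. Named genes are the members, Gnl3, partner genes called by limma, the 2 of each partner class and the 3 of each marker list with the largest ratio in empty vector cells (partner genes above the median signal), and the 5 most like Col4a1 and Lama1. Dusp6, Nanog, Esrrb, Loxl1, Pxdn, Kdr, Col6a2 and the genes so marked were named after their values were seen. Some genes of the lists are not reported here. Alternatives were the mean of probe sets, every probe set, other scaling, a filter on dim genes, thresholds of 1.5-fold and 3-fold, another reference for the 2i pair, eBayes without a trend, a fit without the block and each pair left out.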

Additional observations from a re-analysis of the deposited data

How the results depend on the processing

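The 10 log2 ratios of member genes past 2-fold kept their sign in 51 of 53 alternatives, and both exceptions were the third Sparc probe set, with 0.00 in empty vector cells and -0.11 in Nanog cells. Most of these alternatives could hardly change a sign. Other scaling moved the ratios little, and leaving out probe sets marked _x_at changed none. The stricter check is another probe set of the same gene, which Col4a2 and Lama1 lack. Among member genes, a 3-fold threshold left 3 in empty vector cells and 0 in Nanog cells, where the mean of probe sets and centring each array on its median also left 0. A 1.5-fold threshold gave 6 in 2i and 2 in Nanog cells, all higher, and 2 in Esrrb cells, both lower, and on the Dox-untreated arrays 1 for 2i, 1 for Nanog and 5 for Esrrb, all higher. Among partner genes, a 3-fold threshold gave 10 in empty vector cells (1 lower), 6 in 2i (0 lower) and 0 in Esrrb cells, a 1.5-fold threshold 21 in 2i (5 lower), 6 in Nanog (2 lower) and 12 in Esrrb cells (7 lower), and a second quantile normalization 2 in Esrrb cells, both lower.

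The 1287 limma calls of the common response among all genes became 2659 of all probe sets, and 3 to 35 with 1 pair left out, the fewest without the Esrrb pair. The 2 partner calls became 4 with every probe set, 1 with the mean of probe sets, 1 with a second quantile normalization and 0 to 0 with 1 pair left out. Without the replicate block for the background, the common response had 1272 calls among all genes and 3 among partner genes (Frem1, Loxl1 and Mmp2), and Lama3 was no longer called (adjusted p = 0.194 from limma). The 15 calls of the difference became 77 with centring, 1 without a trend, 1 with the mean of probe sets, 0 with the filter on dim genes, 3 without the replicate block, and 0 to 2222 with 1 pair left out. Its 0 partner calls became 1 with centring and 0 to 22 with 1 pair left out. For the difference, a fit with 1 pair left out has a single pair on 1 side, with no spread of its own. Nothing is read from its counts. The cause of the other changes in counts was not tested. With 1 array per condition, no member ratio can be set against an error, and ratios of dim probe sets are compressed.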
